A study of Mus musculus with 144 samples.

Results

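Blood leukocytes taken 2 hr after a burn injury were set against leukocytes of sham animals of the burn model, taken at the same time, on Affymetrix whole-genome mouse arrays. The comparison used 8 of the 144 arrays of the series: the 4 titled burn blood at 2 hr and the 4 titled burn sham blood at 2 hr, chosen by title alone. The wider study covered burn, trauma-hemorrhage (tissue trauma with blood loss) and lipopolysaccharide in mice, with blood and spleen cells at times from 2 hr to 7 day. Blood was drawn by cardiac puncture, red cells were lysed and the remaining cells went into RNA extraction with no sorting step in the labels, so each array, made from an individual mouse by the series description, measured a mixture of white cells. Strain, sex, age, burn size and what the sham procedure held are not given in the labels of these arrays. Trauma-hemorrhage blood at 2 hr, burn blood at 1 day and burn spleen cells at 2 hr, each with 4 shams of its own, served for tests of differences. The titles of the trauma-hemorrhage leukocyte arrays hold the word Burn where those of the other leukocyte arrays hold Blood. They were taken as blood of the trauma-hemorrhage model from their source (mouse leukocytes) and description. The burn spleen arrays carry burn in their titles but a description naming the trauma-hemorrhage model, and were grouped by title.

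A burn sets off the stress axis within minutes: the adrenal gland releases glucocorticoids and catecholamines. Glucocorticoids act through a nuclear receptor that switches on genes such as Fkbp5, Per1 and the metallothioneins, and catecholamines act on leukocytes through beta-adrenergic receptors, cAMP and the factor CREB. The same hormones move white cells between compartments: neutrophils enter the blood from vessel walls and marrow, and lymphocytes and monocytes leave it for tissues and marrow.

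The arrays carried white cell transcripts at high signal. The T cell receptor gene Cd3e lay between 13238 and 17888 on burn arrays and between 15838 and 21100 on sham arrays, and the neutrophil gene S100a8 between 25964 and 36508 on burn arrays and between 16780 and 29986 on sham arrays. Alas2, the heme synthesis enzyme of young red cells, was also high, at 21709 to 33207 on burn and 26293 to 32819 on sham arrays, although red cells had been lysed. Signals here are the deposited array intensities, on a linear scale.

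Genes of liver cells were present on some of these blood arrays and not on others, and this bears on every result below. Alb, which encodes serum albumin, had signals of 7759, 21160, 24232 and 48.2 on burn replicates 1 to 4, against 48.4, 18839, 83.8 and 54.4 on sham replicates 1 to 4. The liver signal was therefore on 3 burn arrays and 1 sham array, and burn replicate 4 and sham replicates 1, 3 and 4 lacked it. All 20 genes of a hepatocyte list, chosen after these values were seen, were higher on each of those 4 arrays than on any of the other 4. Their mean log2(signal + 32), called the hepatocyte level below, was 10.82, 13.51, 13.90 and 5.92 on burn replicates 1 to 4, against 5.91, 12.32, 5.76 and 5.79 on sham replicates 1 to 4. Across the injury arms 8 of 64 blood arrays exceeded a level of 9, 4 of them in this comparison, and 0 of 64 spleen arrays did. The others were burn replicates 2 and 4 and sham replicate 3 at 1 day, and burn-model sham replicate 4 at 7 day. None of the listed genes passed the test (0 of 20, median log2 change 3.59). Liver genes outside the list did pass, among them Igfbp1, Hpd, Hamp and Tat. Counts of genes that passed are therefore given also with the hepatocyte level as a covariate, a setting added after seeing the data.

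**Figure D1:**
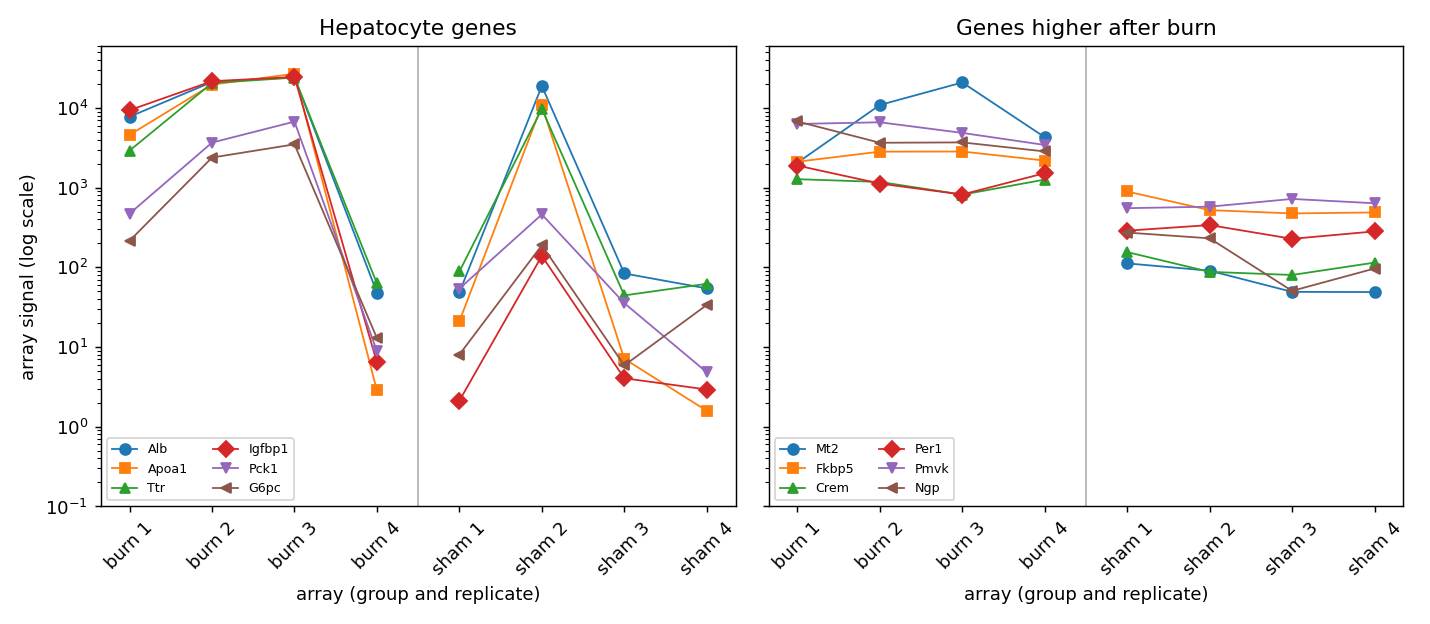
Signal on a log axis for each of the 8 arrays, burn replicates 1 to 4 and then sham replicates 1 to 4, for 6 liver genes (left) and 6 genes higher after burn (right), each gene with a line of its own. The liver genes are high on burn replicates 1, 2 and 3 and on sham replicate 2 (Alb 18839), while Mt2, Fkbp5, Crem, Per1, Pmvk and Ngp are higher on all 4 burn arrays than on any sham array.

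Further features of the arrays moved with the groups or within them. The ratio of 3′ to 5′ Gapdh signal, a sign of RNA integrity, was 2.26 to 2.78 on burn arrays and 1.75 to 2.11 on sham arrays, with no overlap (exact two-sided permutation p = 0.0286, the smallest that 4 against 4 arrays can give), and the number of genes that passed was 469 when it entered as a covariate. For Actb the same ratio overlapped, at 3.69 to 4.47 on burn and 2.79 to 3.98 on sham arrays (exact permutation p = 0.371). By that permutation test the hybridization control level, median signal and hepatocyte level gave p = 0.743, 0.486 and 0.171. Replicates 1 and 2 of both groups were hybridized on 1 day and replicates 3 and 4 on another, and the neutrophil genes of the shams split by that day, as described below. Array pairs correlated over genes with r of 0.863 to 0.958 among burn arrays, 0.927 to 0.965 among sham arrays and 0.845 to 0.953 between the groups.

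Of 14645 genes tested, 429 (2.93%) passed limma's moderated test at an adjusted p under 0.05, 263 higher (1.8%) and 166 lower (1.13%) after burn. This split, 61.3% higher, turned when the 8 arrays were fitted alone: 448 genes passed, 264 of them among the 429, and 42.2% were higher. With array weights 52.0% of 946 were higher, and with quantile normalization 52.8% of 498. The median log2 change was 1.87 for the 263 and −1.08 for the 166, against 0.03 over all genes tested. In 155 of the 263 and 160 of the 166, the 4 burn arrays lay wholly outside the range of the 4 sham arrays, against 636 genes wholly above (4.34%) and 975 wholly below (6.66%) among all genes tested. These shares, with the 1.8% higher and 1.13% lower given above, are the background for the counts of each list below. The 108 higher genes whose ranges overlapped included the liver genes Igfbp1, Hpd, Hamp and Tat, the last 3 named after their values were seen. With the hepatocyte level as a covariate 167 genes passed, 105 higher and 62 lower, and 98 and 61 of these were among the 263 and 166. With the arrays of high hepatocyte level as a block 172 passed. Leaving out 1 array at a time gave 150 to 815 genes, lowest without sham replicate 3 (150) or 4 (153) and highest without burn replicate 4 (815) or sham replicate 2 (728). Genes that passed in all 3 fits numbered 95 higher and 61 lower, and 87 and 59 of them had ranges apart.

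Leaving the liver-positive arrays out left 1 burn array, replicate 4, against 3 shams. The spread in this fit comes from the other groups and the lone array is assumed to vary like them, so its calls are no replicated test, here and wherever those arrays are left out below. In it 8 genes passed: Crem, Mt2, Plaur, Pmvk and Prim2 were higher, and Ahsa2, Clec2d and Cxcr6 were lower. Plaur, Prim2 and Clec2d are named for this count after their values were seen. The direction of change stayed the same in that fit for 251 of the 263 higher genes and all 166 lower genes. These arrays are among the 8 that called the genes. For the 155 higher and 160 lower genes with ranges apart, the direction was therefore fixed in advance, and the count is no separate check. Throughout, fewer cells of a type and less RNA per cell cannot be told apart in such mixed samples.

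**Figure D2:**
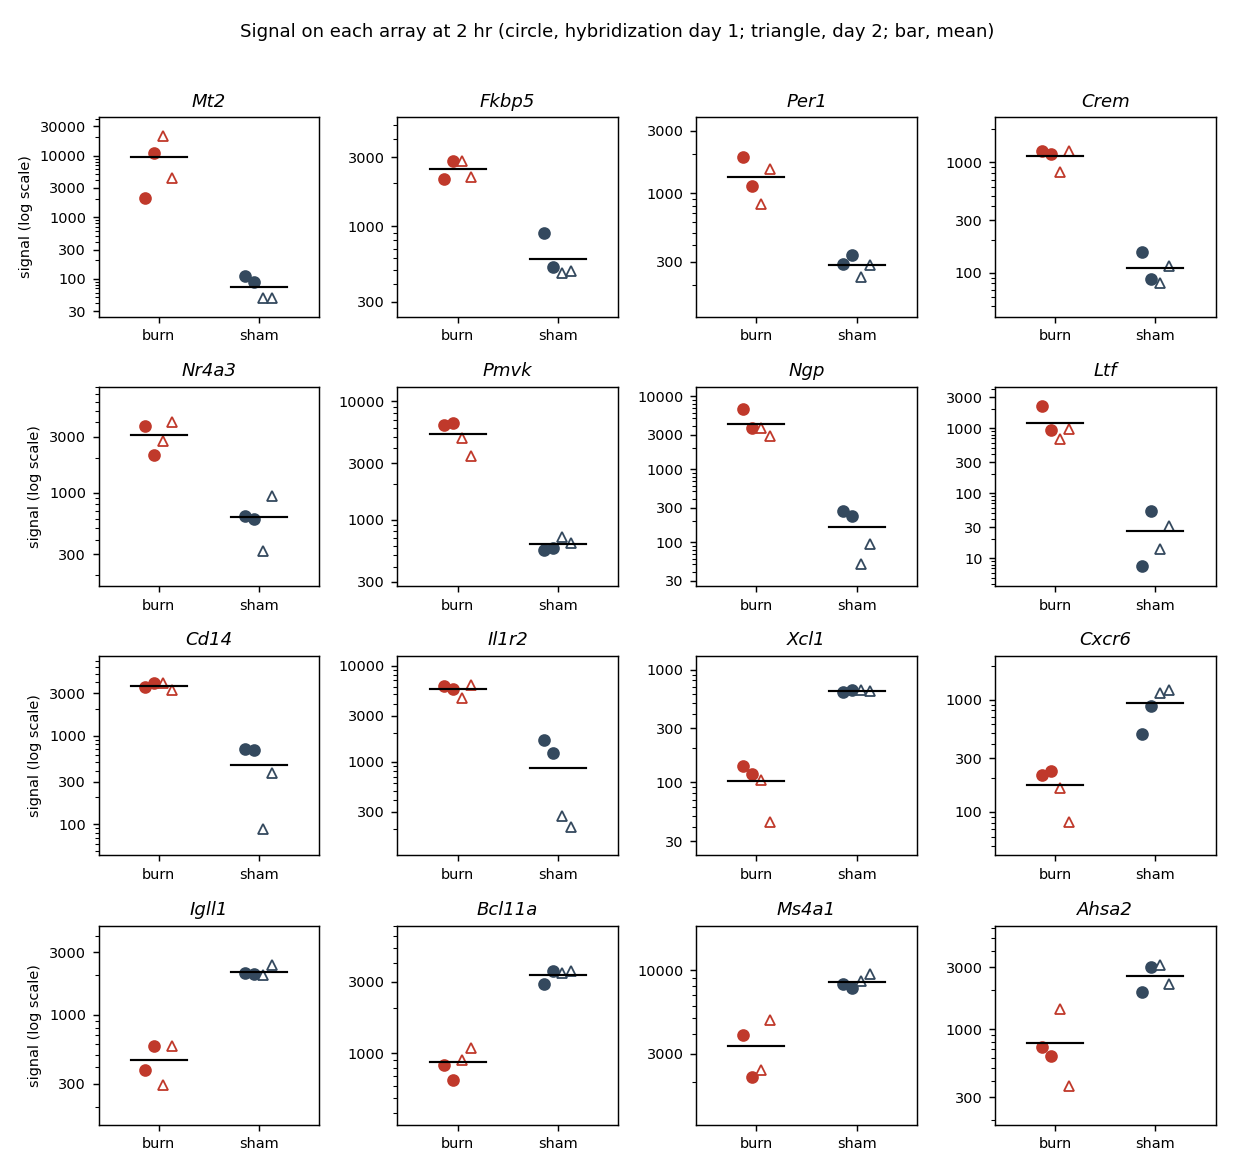
Signal of 16 genes on a log axis, burn arrays left and sham arrays right in each panel, circles for hybridization day 1 and triangles for day 2, with the group mean as a bar. In all 16 panels the 4 burn arrays lie outside the range of the 4 sham arrays.

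Of 29 glucocorticoid-responsive genes tested, 10 rose, 0 fell and 19 did not pass, with 26 positive changes and a median of 0.82. With the hepatocyte level as a covariate 4 rose (Mt2, Fkbp5, Per1 and Il1r2) and the median was 0.73, and without the liver-positive arrays the median was 0.72. Fkbp5, the co-chaperone that the glucocorticoid receptor induces and that restrains it, had signals of 2117, 2830, 2839 and 2188 after burn, against 895, 522, 475 and 489 in shams. All burn arrays were above all shams, whether or not they held liver signal, and the gene rose 4.12-fold (log2 change 2.04, SE 0.34, adjusted p = 0.00011; 0.000994 with the covariate). Of 2 further Fkbp5 probe sets, 1 moved the same way. Klf9, a transcription factor that feeds back on this response, had 2716, 4230, 6597 and 3397 after burn, against 1194, 892, 234 and 1060 in shams. The groups did not overlap and Klf9 rose (5.33-fold, adjusted p = 0.00826), but it did not pass with the covariate (adjusted p = 0.0725).

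Errfi1, which restrains EGF receptor signalling, had 5446, 16234, 22690 and 4197 after burn, against 1648, 7006, 1251 and 1204 in shams. Among the burn arrays its order was that of the hepatocyte level, the liver-positive sham lay above burn replicates 1 and 4, and the rise (4.62-fold, adjusted p = 0.00582) did not pass with the covariate (adjusted p = 0.108). Cdkn1a, the cell-cycle inhibitor p21, rose with ranges apart (1157 to 2285 after burn, 208 to 671 in shams, adjusted p = 0.0139; 0.0829 with the covariate). Tat, a liver enzyme of tyrosine breakdown, followed the liver signal: 196, 1856, 4038 and 5.16 after burn, against 41.4, 115, 26.2 and 16.7 in shams (adjusted p = 0.0298; 0.479 with the covariate). Cdkn1a and Tat, with Mt1, Il1r2 and Pdk4 described further on, complete the 10, and Tat and Cdkn1a were chosen after their values were seen.

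Other targets of the same receptor did not pass. Of these Sgk1 (0.50), Ddit4 (0.82), Pik3ip1 (1.05) and Map3k6 (1.05), named after their values were seen, had all burn arrays above all shams. In others the groups overlapped. Tsc22d3, which encodes the leukocyte mediator GILZ, lay between 5087 and 6900 after burn and between 4690 and 7280 in shams (log2 change 0.10, adjusted p = 0.918). Dusp1, a MAP kinase phosphatase, lay between 19353 and 28030 after burn and between 11866 and 21986 in shams (0.31, adjusted p = 0.642). Zbtb16 changed by 0.34 (246 to 437 against 120 to 421) and Cxcr4 by −0.09 (15325 to 23806 against 18940 to 23456). The list thus held genes with ranges far apart beside genes whose groups overlapped.

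Metallothioneins bind zinc and copper in the cytosol, and metals act on them through the factor MTF-1 while glucocorticoids act through their receptor. Mt2 had the largest fold change among genes with ranges apart: 2052, 10888, 20879 and 4294 after burn, against 112, 90.8, 49.3 and 49.0 in shams. It was at 4294 on the burn array without liver signal and at 90.8 on the sham array with it. The fold was 64.8 (log2 change 6.02, SE 0.78, adjusted p = 8.54e-07), and the log2 change was 5.10 with the covariate and 5.46 without the liver-positive arrays. Mt1 had 75.7, 571, 351 and 127 after burn, against 52.6, 76.0, 46.1 and 4.09 in shams, with burn replicate 1 just inside the sham range. It rose 3.52-fold (adjusted p = 0.0118) and did not pass with the covariate (adjusted p = 0.121). Of the 14 metallothionein and zinc genes tested, 2 rose, 0 fell and 12 did not pass, and 1 rose with the covariate. Slc30a1, the zinc exporter and another target of metals, lay between 1167 and 2008 after burn and between 927 and 1534 in shams. It is named after its values were seen.

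The starts of both metallothionein genes are printed because Mt2 had the largest change among genes with ranges apart. The windows of 300 bases hold mostly upstream sequence and run just past the gene start in RefSeq annotation (GRCm38.p6), Mt2 on chr8:94172368-94172667 and Mt1 on chr8:94178839-94179138, both on the plus strand. Capitals mark the core of the metal response element that MTF-1 binds, searched as TGCACNC and TGCGCNC on both strands.
Mt2: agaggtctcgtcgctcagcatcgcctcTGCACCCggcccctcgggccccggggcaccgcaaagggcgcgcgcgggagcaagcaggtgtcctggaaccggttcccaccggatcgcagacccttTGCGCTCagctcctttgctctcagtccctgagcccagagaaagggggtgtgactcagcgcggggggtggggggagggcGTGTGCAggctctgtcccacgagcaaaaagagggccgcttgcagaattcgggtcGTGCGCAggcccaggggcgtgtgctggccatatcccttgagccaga
Mt1: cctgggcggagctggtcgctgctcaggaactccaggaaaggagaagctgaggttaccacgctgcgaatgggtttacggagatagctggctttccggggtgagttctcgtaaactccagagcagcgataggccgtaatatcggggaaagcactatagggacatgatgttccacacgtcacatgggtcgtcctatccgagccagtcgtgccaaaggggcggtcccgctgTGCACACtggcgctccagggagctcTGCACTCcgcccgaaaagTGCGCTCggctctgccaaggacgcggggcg
Mt2 held 4 matches and Mt1 held 3, with no overlap between matches, and 25.7% of all 32851 promoter windows of this length, and 33.8% of the 14911 windows of the genes tested, held at least 1. A match is a run of letters and does not show that a factor was bound.

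Among genes of the adrenergic and cAMP response rises were also found. Of 14 tested, 5 rose, 0 fell and 9 did not pass, with 13 positive changes and a median of 1.08 (3 rises and a median of 0.95 with the covariate). Crem, which encodes cAMP-induced repressors of CREB activity, had 1278, 1180, 817 and 1262 after burn, against 155, 87.8, 80.2 and 115 in shams. Burn arrays were about alike with and without liver signal, and Crem rose 8.29-fold (log2 change 3.05, SE 0.35, adjusted p = 4.37e-08; 3.09 with the covariate, 3.15 without the liver-positive arrays). Nr4a3, an orphan nuclear receptor of the immediate response to cAMP, had 3730, 2106, 2750 and 4011 after burn, against 633, 604, 322 and 940 in shams, a 4.99-fold rise (adjusted p = 0.00247; 0.0059 with the covariate). Neither of 2 other Nr4a3 probe sets moved the same way.

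Its relative Nr4a2 had 1184, 911, 1774 and 1891 after burn, against 233, 621, 257 and 437 in shams, and rose 3.61-fold (adjusted p = 0.0343; 0.146 with the covariate). Pde4d, a phosphodiesterase that breaks cAMP down, had 681, 638, 509 and 747 after burn, against 312, 223, 228 and 429 in shams (2.09-fold, adjusted p = 0.0403; 0.084 with the covariate). Ppargc1a, a coactivator of mitochondrial and gluconeogenic genes in liver, was highest on the 3 liver-positive burn arrays and not raised on the liver-positive sham: 322, 1824, 4633 and 123 after burn, against 136, 133, 41.3 and 120 in shams. It passed with all arrays (adjusted p = 0.00154) and with the covariate (adjusted p = 0.0297), but without the liver-positive arrays its change was 0.33.

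The starts of Nr4a2 (chr2:57123954-57124253, minus strand) and Nr4a3 (chr4:48045055-48045354, plus strand) are printed from RefSeq (GRCm38.p6) with the core of the CREB site, searched as TGACG on both strands, in capitals. They were chosen for holding the most matches among the 4 cAMP-response genes searched (Nr4a2, Nr4a3, Ppargc1a and Pde4d). Crem, the member of smallest p in this list, is not among these 4, and its matches are not given.
Nr4a2: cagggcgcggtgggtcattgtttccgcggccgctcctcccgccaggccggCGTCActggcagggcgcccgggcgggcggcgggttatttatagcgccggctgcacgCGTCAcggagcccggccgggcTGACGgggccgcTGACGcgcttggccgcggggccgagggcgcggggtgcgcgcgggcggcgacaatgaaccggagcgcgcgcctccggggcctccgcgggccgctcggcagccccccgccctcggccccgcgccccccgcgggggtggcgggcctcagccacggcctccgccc
Nr4a3: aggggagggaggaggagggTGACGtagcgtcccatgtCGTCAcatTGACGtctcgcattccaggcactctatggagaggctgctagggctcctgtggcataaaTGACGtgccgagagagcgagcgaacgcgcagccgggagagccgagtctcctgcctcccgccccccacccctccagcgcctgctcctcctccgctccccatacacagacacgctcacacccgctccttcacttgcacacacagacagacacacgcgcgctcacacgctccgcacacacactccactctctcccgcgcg
Each held 4 matches, Ppargc1a held 1 and Pde4d held 0, and 20.8% of all promoter windows of this length and 28.3% of those of the genes tested held at least 1.

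Of the 18 circadian clock genes tested, 3 rose (Per1, Ciart and Nfil3), 0 fell and 15 did not pass, and the same 3 rose with the covariate. Per1, a core clock repressor that glucocorticoids also induce, had 1893, 1125, 820 and 1521 after burn, against 289, 339, 228 and 283 in shams (4.17-fold, log2 change 2.06, SE 0.39, adjusted p = 0.000715). Its highest values were on the burn arrays of lowest hepatocyte level, and the change was 2.39 without the liver-positive arrays. Ciart, a clock-controlled repressor, was near background in 3 shams: it had 99.1, 222, 206 and 139 after burn, against 6.14, 62.7, 2.76 and 3.83 in shams (adjusted p = 0.00352), and its fold of 4.17 depends on the constant of 32 added before taking logs. Nfil3, a repressor of D-box genes, had 3046, 3024, 1787 and 1676 after burn, against 462, 999, 179 and 266 in shams (5.50-fold, adjusted p = 0.00751). The activator Arntl (172 to 376 after burn, 230 to 436 in shams), Nr1d1 and Dbp did not pass, with changes of −0.30, −0.57 and 0.22.

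The start of Ciart (chr3:95882179-95882478, minus strand, GRCm38.p6 in RefSeq) is printed with its E-boxes, the CACGTG site of the clock activators, in capitals. It was chosen for holding the most among the 3 clock genes searched (Ciart, Per1 and Nfil3).
Ciart: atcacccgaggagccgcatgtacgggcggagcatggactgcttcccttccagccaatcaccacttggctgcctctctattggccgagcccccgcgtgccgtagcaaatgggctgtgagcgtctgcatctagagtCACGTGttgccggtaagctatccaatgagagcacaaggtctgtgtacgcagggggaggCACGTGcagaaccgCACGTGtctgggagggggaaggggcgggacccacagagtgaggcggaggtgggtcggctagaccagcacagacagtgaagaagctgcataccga
Ciart held 3 E-boxes, 1 of 2 Per1 windows held 1 and the Nfil3 window held 0, and 7.15% of all promoter windows of this length and 9.24% of those of the genes tested held at least 1.

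No gene of the immediate-early list passed: 0 of 21 rose or fell, with and without the covariate, with a median of 0.16. Nr4a2 and Nr4a3, which rose, were counted with the cAMP response and not in this list. In 3 of the 21 (Fosl2, Junb and Egr1) all burn arrays lay above all shams, against 4.34% of all genes. In 2 (Egr3 and Ier5) all lay below, against 6.66%. These genes are named for this count after their values were seen. Fos (15311 to 21170 after burn, 11756 to 19446 in shams) and Jund (17433 to 25340 after burn, 20348 to 23996 in shams) were at high signal in both groups.

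The mean level of secondary and tertiary granule genes of neutrophils was higher on all burn arrays than on any sham. Of 20 secondary and tertiary granule genes tested, 3 rose (Ngp, Ltf and Camp), 0 fell and 17 did not pass. All 20 changes were positive, with a median of 1.21 (0.82 with the covariate, with the same 3 rises, and 1.14 without the liver-positive arrays). Ngp, a granule protein of the cathelicidin group, had 6776, 3659, 3697 and 2847 after burn, against 273, 231, 50.7 and 96.7 in shams (23.7-fold, log2 change 4.57, SE 0.76, adjusted p = 0.000113). Ltf, which encodes the iron binder lactoferrin, had 2180, 955, 688 and 996 after burn, against 7.48, 54.1, 13.7 and 31.7 in shams. Its fold of 20.1 (adjusted p = 0.000947) depends on the added constant, since 3 shams lay below 32. Camp, the cathelicidin, had 1367, 311, 512 and 821 after burn, against 77.2, 89.8, 51.0 and 49.5 in shams (7.06-fold, adjusted p = 0.0165).

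For several other granule transcripts the groups overlapped. S100a8 and S100a9, which form calprotectin, changed by 0.27 each, and S100a9 lay between 26595 and 39692 after burn and between 17927 and 31572 in shams. Lcn2, an iron-sequestering lipocalin, had 5684, 4730, 4219 and 2918 after burn, against 3350, 3859, 739 and 465 in shams (adjusted p = 0.189). Mmp8, a neutrophil collagenase, had 2215, 1887, 4525 and 1612 after burn, against 2426, 1502, 428 and 211 in shams (adjusted p = 0.195). For Lcn2 and Mmp8, sham replicates 1 and 2 thus lay within or near the burn range while replicates 3 and 4 lay far below it.

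That split followed the hybridization day. The mean log2 level of the granule list was 11.56, 11.20, 11.37 and 10.89 on burn replicates 1 to 4, against 10.46 and 10.72 on the day 1 shams and 9.19 and 8.88 on the day 2 shams. Ngp, Ltf and Camp had ranges apart, with changes of 4.14, 4.66 and 2.59 on day 1 and 4.99, 3.99 and 3.05 on day 2. Within days 10 genes passed on day 1 and 115 on day 2, with 2 arrays a group on each. The part that the day had in the size of the neutrophil changes was not tested beyond these values.

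**Figure D3:**
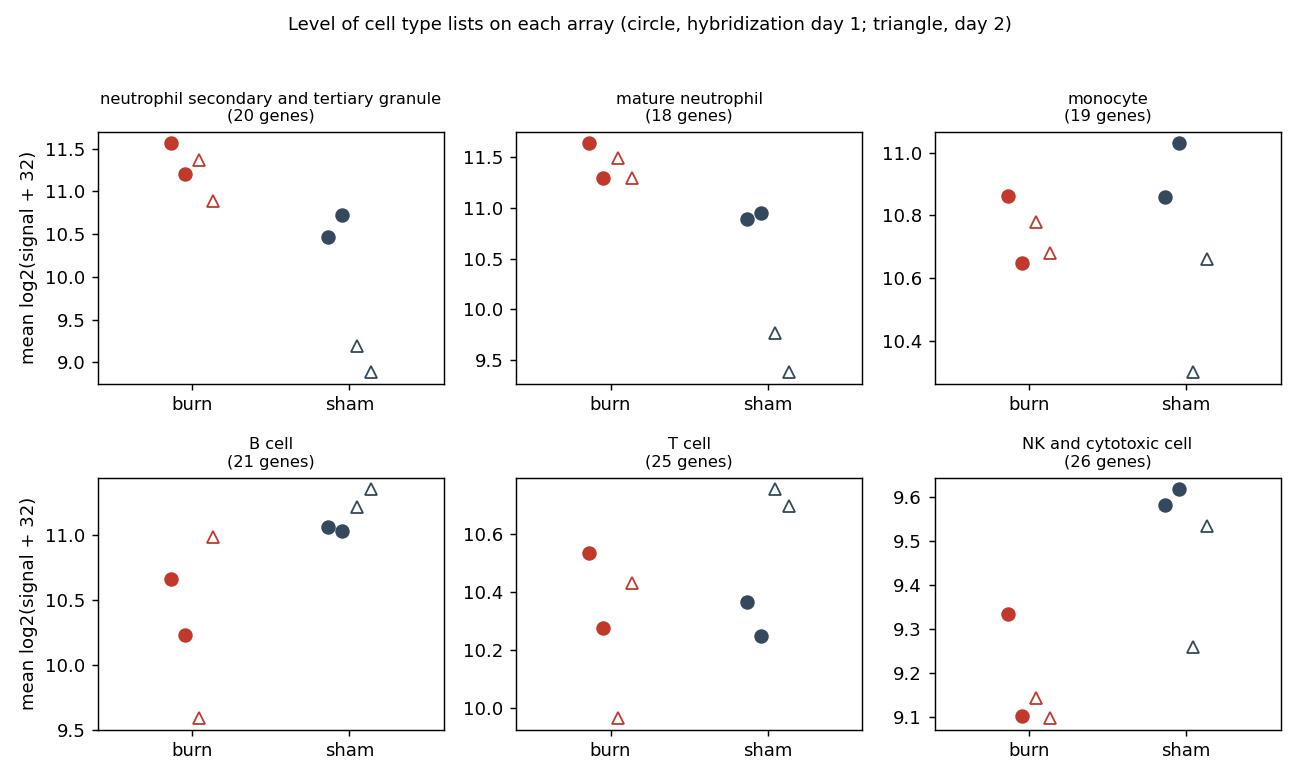
Mean log2(signal + 32) over the genes of 6 cell type lists on each array, burn left and sham right, with circles for hybridization day 1 and triangles for day 2. The secondary and tertiary granule list and the mature neutrophil list are higher on every burn array than on any sham, with the day 2 shams lowest, and the B cell list is lower on every burn array than on any sham.

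Of the mature neutrophil genes 6 of 18 rose, 0 fell and 12 did not pass, with a median of 0.68 (5 rises with the covariate). Acod1, which makes the antibacterial metabolite itaconate, had 2675, 2333, 2563 and 1595 after burn, against 290, 414, 28.2 and 75.1 in shams (13.1-fold, log2 change 3.71, SE 0.59, adjusted p = 6.73e-05). Il1r2, the decoy receptor that binds interleukin-1 without signalling and is also glucocorticoid-responsive, had 6106, 5758, 4646 and 6242 after burn, against 1697, 1218, 274 and 211 in shams (8.97-fold, adjusted p = 0.00131). Hdc, which makes histamine, had 12994, 9225, 10313 and 9117 after burn, against 3750, 3391, 602 and 826 in shams (6.34-fold, adjusted p = 0.000715). The day 2 shams were again the lowest in each.

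Ccrl2, an atypical receptor for the chemoattractant chemerin, rose 5.28-fold (723 to 1456 after burn, 84.8 to 427 in shams). Dgat2, an enzyme of triglyceride synthesis, rose 5.21-fold (877 to 5531 after burn, 234 to 788 in shams). Its spread among burn arrays was wide (mean 2925, SD 2170), and its adjusted p was 0.00184 with all arrays and 0.0445 with the covariate. Trem1, an amplifier of neutrophil activation, rose 3.75-fold (2051 to 3150 after burn, 236 to 1180 in shams) and did not pass with the covariate (adjusted p = 0.0606). Csf3r, the G-CSF receptor, had 3486, 2362, 3104 and 3863 after burn, against 3878, 4268, 1850 and 721 in shams (adjusted p = 0.685). Its day 1 shams were above all burn arrays and its day 2 shams below all of them.

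Primary granules are made in neutrophil precursors. Of 9 primary granule genes 0 rose and 1 fell: Serpinb1a, an inhibitor of neutrophil elastase that other white cells also express, had 970, 738, 663 and 1228 after burn, against 2290, 1945, 2547 and 2114 in shams (2.48-fold lower, adjusted p = 0.00262; 0.0282 with the covariate). Mpo, the myeloperoxidase of early granules, was low on all arrays, at 230, 44.4, 52.0 and 58.3 after burn and 40.5, 32.5, 22.8 and 34.3 in shams (adjusted p = 0.519).

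Monocyte genes moved in different directions. Of 19 tested, 1 rose and 2 fell, with a median of −0.05 (1 and 1 with the covariate). Cd14, the co-receptor for lipopolysaccharide on monocytes and neutrophils, had 3522, 3932, 3911 and 3263 after burn, against 699, 680, 88.3 and 372 in shams (9.22-fold higher, log2 change 3.20, SE 0.58, adjusted p = 0.000501). Ms4a4c, a membrane gene of inflammatory monocytes, had 1027, 787, 1071 and 740 after burn, against 2647, 2233, 2273 and 1955 in shams (2.48-fold lower, adjusted p = 0.0051). F13a1, the coagulation factor XIII subunit of monocytes, was 1.92-fold lower (1744 to 3068 after burn, 3440 to 5423 in shams, adjusted p = 0.0463; 0.0585 with the covariate).

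The receptor genes Ccr2, which takes monocytes out of marrow, and Cx3cr1, of patrolling monocytes, had ranges apart without passing. Ccr2 had 1731, 1581, 1663 and 1648 after burn, against 4418, 4438, 2259 and 2512 in shams (adjusted p = 0.375), and Cx3cr1 lay between 67.8 and 196 after burn and between 237 and 317 in shams (adjusted p = 0.236). No gene passed among 13 dendritic cell, 6 eosinophil or 12 basophil and mast cell genes, and Siglecf, the eosinophil lectin, lay between 183 and 403 after burn and between 107 and 318 in shams.

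B cell genes were lower in direction throughout, though few passed. All 21 B cell genes tested had negative changes, with a median of −0.78. In 10 the burn arrays lay wholly below the shams, against 6.66% of all genes. By the test 2 fell (1.13% of all genes did), 0 rose and 19 did not pass (1 fell with the covariate). Tnfrsf13b, the B cell receptor TACI, had 429, 422, 435 and 680 after burn, against 1590, 1253, 1784 and 1636 in shams (3.09-fold lower, log2 change −1.63, SE 0.34, adjusted p = 0.00262; 0.0334 with the covariate). Ms4a1, which encodes CD20, had 3957, 2159, 2377 and 4870 after burn, against 8261, 7709, 8540 and 9494 in shams (2.67-fold lower, adjusted p = 0.0301; 0.147 with the covariate). The lowest values of Ms4a1 and of the list were on burn replicates 2 and 3, those with the most liver signal. The mean log2 level of the list was 10.66, 10.23, 9.59 and 10.98 on burn replicates 1 to 4, against 11.03 to 11.35 on shams, and the median change was −0.24 without the liver-positive arrays.

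Other B lineage genes were among the 12 largest falls with ranges apart. Igll1, a surrogate light chain gene, had 382, 580, 292 and 577 after burn, against 2099, 2038, 2012 and 2385 in shams (4.57-fold lower, adjusted p = 0.000691; 0.00408 with the covariate). Bcl11a, a transcription factor of B and plasmacytoid dendritic cells, had 834, 665, 896 and 1082 after burn, against 2903, 3532, 3396 and 3515 in shams (3.78-fold lower, adjusted p = 0.00277). All 6 other Bcl11a probe sets moved the same way. Mzb1, a chaperone of plasma and marginal zone B cells, was the 1 plasma cell gene of 9 to fall (251 to 692 after burn, 938 to 1388 in shams, adjusted p = 0.037, and 0.218 with the covariate). The plasma cell list as a whole did not go this way: 7 of the 9 changes were positive, with a median of 0.50. Of 11 MHC class II genes 0 passed, and H2-Aa lay between 6621 and 11803 after burn and between 9495 and 11802 in shams.

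Most T and NK cell genes did not pass. Of 25 T cell genes 1 rose and 0 fell (1.8% and 1.13% of all genes did), with 18 negative changes and a median of −0.26. In 6 of them (Cd3g, Cd8a, Lat, Bcl11b, Cd5 and Cd27, named after their values were seen) all burn arrays lay below all shams. The same held for 6.66% of all genes tested, and none of the 6 passed. The gene that rose was Ctla4, the inhibitory receptor of activated and regulatory T cells: 4074, 3608, 2855 and 5054 after burn, against 1135, 487, 826 and 1020 in shams (4.48-fold, log2 change 2.16, SE 0.43, adjusted p = 0.00128; 0.00426 with the covariate). Il7r, the interleukin-7 receptor of resting T cells, lay between 7950 and 11826 after burn and between 6219 and 9178 in shams (adjusted p = 0.618). Of 25 NK and cytotoxic cell genes 1 fell (1.13% of all genes did), with 19 negative changes and a median of −0.30. Xcl1, a chemokine of NK and CD8 T cells that draws cross-presenting dendritic cells, had 140, 119, 105 and 44.7 after burn, against 631, 653, 655 and 641 in shams (5.27-fold lower, log2 change −2.40, SE 0.52, adjusted p = 0.00348; 0.00551 with the covariate). For the cytotoxic effector gene Gzma the groups overlapped: it lay between 6342 and 10033 after burn and between 6328 and 10014 in shams, and Ccl5 and Nkg7 changed by 0.16 and −0.45. The natural killer receptor Ncr1 had 70.3, 79.3, 40.1 and 77.3 after burn, against 301, 247, 36.1 and 247 in shams (adjusted p = 0.223), where sham replicate 3 lay below all burn arrays.

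Of 26 trafficking receptors 1 fell, 0 rose, and 7 had burn arrays wholly below the shams (1 fall with the covariate). Over all genes tested 1.13% fell and 6.66% lay wholly below. Cxcr6, the receptor that holds T and NKT cells in liver and other tissues, had 214, 232, 164 and 81.8 after burn, against 497, 881, 1146 and 1214 in shams (4.70-fold lower, log2 change −2.23, SE 0.42, adjusted p = 0.000713). The lowest value was on the burn array without liver signal, and the change was −2.48 with the covariate and −3.01 without the liver-positive arrays. Cxcr3, the receptor of effector T cells for interferon-induced chemokines, had 475, 384, 346 and 312 after burn, against 903, 923, 708 and 890 in shams, and its groups were apart but it did not pass (adjusted p = 0.101).

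The other large falls were in genes less tied to a cell type. Xkrx, a membrane gene of the XK family, had 293, 349, 106 and 649 after burn, against 1562, 1844, 1518 and 2588 in shams (5.69-fold lower, adjusted p = 0.000741; 0.00652 with the covariate). Dtx1, a regulator of Notch signalling in lymphocytes, was 3.32-fold lower (62.0 to 254 after burn, 437 to 939 in shams), and the predicted genes Gm20559 and Gm11346 were 4.08-fold and 3.60-fold lower. These 4 passed with the covariate. Thap2, Lrrc23 and Zfp563 were 3.54-fold, 3.40-fold and 3.29-fold lower and did not pass with it (adjusted p = 0.0745, 0.106 and 0.0918).

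Heat shock chaperones were lower where they changed. Of 17 tested, 0 rose, 3 fell and 14 did not pass (1 fell with the covariate). Chordc1, an Hsp90 co-chaperone, had 2170, 2780, 2359 and 3187 after burn, against 4698, 7174, 6802 and 6530 in shams (2.38-fold lower, log2 change −1.25, SE 0.23, adjusted p = 0.000715; 0.00546 with the covariate). Hsph1, the large Hsp110 chaperone, had 8494, 7057, 9096 and 11121 after burn, against 14538, 19090, 22584 and 21296 in shams (2.16-fold lower, adjusted p = 0.0202; 0.124 with the covariate). Dnajb1, the Hsp40 partner of Hsp70, had 2600, 1988, 1645 and 2885 after burn, against 4148, 4657, 4309 and 4792 in shams (1.99-fold lower, adjusted p = 0.0151; 0.0712 with the covariate). In all 3 the groups were apart.

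Ahsa2, an activator of the Hsp90 ATPase and among the 12 largest falls, had 727, 624, 1429 and 369 after burn, against 1936, 3014, 3116 and 2234 in shams (3.48-fold lower, adjusted p = 0.000186; 6.97e-05 with the covariate). The inducible Hspa1a, the classic heat shock gene, had 158, 237, 233 and 291 after burn, against 82.9, 418, 138 and 121 in shams (adjusted p = 0.795).

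The start of Chordc1 (chr9:18292017-18292316, plus strand, GRCm38.p6 in RefSeq) is printed as the member of smallest p, with the heat shock element core, searched as GAANNTTC on both strands, in capitals.
Chordc1: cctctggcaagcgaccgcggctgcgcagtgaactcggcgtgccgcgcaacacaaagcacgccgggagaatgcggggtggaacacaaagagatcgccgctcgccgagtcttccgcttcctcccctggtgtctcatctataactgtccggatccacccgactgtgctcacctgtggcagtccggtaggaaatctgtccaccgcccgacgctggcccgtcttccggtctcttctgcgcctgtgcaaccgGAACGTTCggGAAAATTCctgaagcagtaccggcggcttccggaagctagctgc
Chordc1 held 2 matches, each of 2 Hsph1 windows held 1 and the Dnajb1 windows held 0, and 7.86% of all promoter windows of this length and 6.02% of those of the genes tested held at least 1.

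Most genes of inflammatory signalling did not pass. Of 21 cytokine and chemokine genes 2 rose (1.8% of all genes did), 0 fell and 19 did not pass (0 rose with the covariate). Cxcl3, a neutrophil chemoattractant, had 267, 227, 334 and 223 after burn, against 55.5, 9.39, 57.3 and 36.6 in shams (4.25-fold, adjusted p = 0.016; 0.0516 with the covariate). Lif, an interleukin-6 family cytokine, was faint, at 51.0 to 91.7 after burn and 2.78 to 13.6 in shams (adjusted p = 0.0467). Il1b lay between 7639 and 10787 after burn and between 2703 and 12583 in shams, Tnf between 45 and 130 after burn and between 36.3 and 125 in shams, and Il10 between 46.3 and 101 after burn and between 20.0 and 52.8 in shams, and none of these 3 passed. Cxcl2, a partner of Cxcl3, had 12184, 9914, 10317 and 11333 after burn, against 4539, 6293, 980 and 4798 in shams, apart but with adjusted p = 0.415.

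Of 18 NF-kB feedback and signalling genes 2 rose and 0 fell, against 1.8% and 1.13% of all genes, and the counts were the same with the covariate. Birc3, an inhibitor of cell death in this pathway, had 5813, 4112, 4496 and 6594 after burn, against 2175, 2650, 1879 and 2196 in shams (2.32-fold, adjusted p = 0.00582). Tnfaip3, the deubiquitinase A20 that ends the signal, had 4849, 3313, 2824 and 4947 after burn, against 1263, 1339, 2197 and 1742 in shams (2.40-fold, adjusted p = 0.0281). The inhibitor Nfkbia, which the same pathway and glucocorticoids induce, lay between 16908 and 22122 after burn and between 16189 and 21372 in shams.

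Of 21 Toll-like and innate receptor genes 2 rose and 1 fell, against 1.8% and 1.13% of all genes. Those that rose were Cd14 and the lectin Clec4e (3.72-fold, adjusted p = 0.0266, and 0.163 with the covariate). The lipopeptide receptor Tlr1 fell (2.09-fold, adjusted p = 0.0215, and 0.189 with the covariate). In the interleukin-1 system Il1r2 rose and P2rx7, the ATP-gated channel that triggers the inflammasome, fell (957 to 1672 after burn, 2531 to 4149 in shams, adjusted p = 0.0325; 0.102 with the covariate). Among 17 apoptosis genes 1 rose, Bcl2l11, which encodes the killer protein BIM that glucocorticoids induce in lymphocytes: 7956, 5976, 5492 and 7859 after burn, against 3095, 3379, 3175 and 3798 in shams (2.00-fold, log2 change 1.00, SE 0.20, adjusted p = 0.00166; 0.00362 with the covariate). Ccnd2, a D cyclin of lymphocytes, was the 1 cell cycle gene of 25 to fall (2167 to 3387 after burn, 5073 to 6189 in shams, adjusted p = 0.0309; 0.0712 with the covariate).

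Most fuel genes did not pass. Slc2a1, the glucose transporter GLUT1, had 17279, 10338, 11508 and 14992 after burn, against 7537, 8540, 5808 and 5499 in shams (1.96-fold, adjusted p = 0.0151; 0.025 with the covariate). It and Vegfa, a hypoxia-induced growth factor (299 to 639 after burn, 81.4 to 215 in shams, adjusted p = 0.0452; 0.238 with the covariate), were the 2 of 23 glycolysis and hypoxia genes to rise. Of 23 fatty acid and lipase genes 2 rose and 0 did with the covariate. Pdk4, the kinase that restrains glucose oxidation in fasting, had 344, 876, 2531 and 921 after burn, against 74.9, 121, 2.11 and 212 in shams (8.85-fold, log2 change 3.15, adjusted p = 0.0304; log2 change 2.51, adjusted p = 0.214 with the covariate). Without the liver-positive arrays its log2 change was 3.31. Pnpla2, the triglyceride lipase ATGL, had 584, 775, 505 and 840 after burn, against 286, 330, 257 and 165 in shams (2.44-fold, adjusted p = 0.0118; 0.0725 with the covariate). Of 17 antioxidant genes 2 rose, Txnrd1 (1.74-fold) and Gstm1 (4.22-fold), against 1.8% of all genes, and 0 did with the covariate. Gstm1 followed the liver signal, at 626, 4661, 5533 and 296 after burn, against 147, 1557, 217 and 219 in shams.

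Among the 12 largest rises with ranges apart, 3 belonged to none of the lists. Pmvk, the phosphomevalonate kinase of sterol synthesis, had 6296, 6612, 4863 and 3433 after burn, against 553, 577, 722 and 637 in shams (7.94-fold, log2 change 2.99, SE 0.29, adjusted p = 1.56e-10; 4.84e-09 with the covariate), and its groups were far apart with little spread. Usp2, a deubiquitinase with a daily rhythm, had 712, 1519, 2394 and 537 after burn, against 69.2, 357, 37.2 and 104 in shams (8.10-fold, adjusted p = 0.000556; 0.0107 with the covariate). The gene 1810055G02Rik had 272, 447, 298 and 411 after burn, against 8.27 to 69.8 in shams (7.05-fold on the scale with 32 added, adjusted p = 9e-05).

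**Figure D4:**
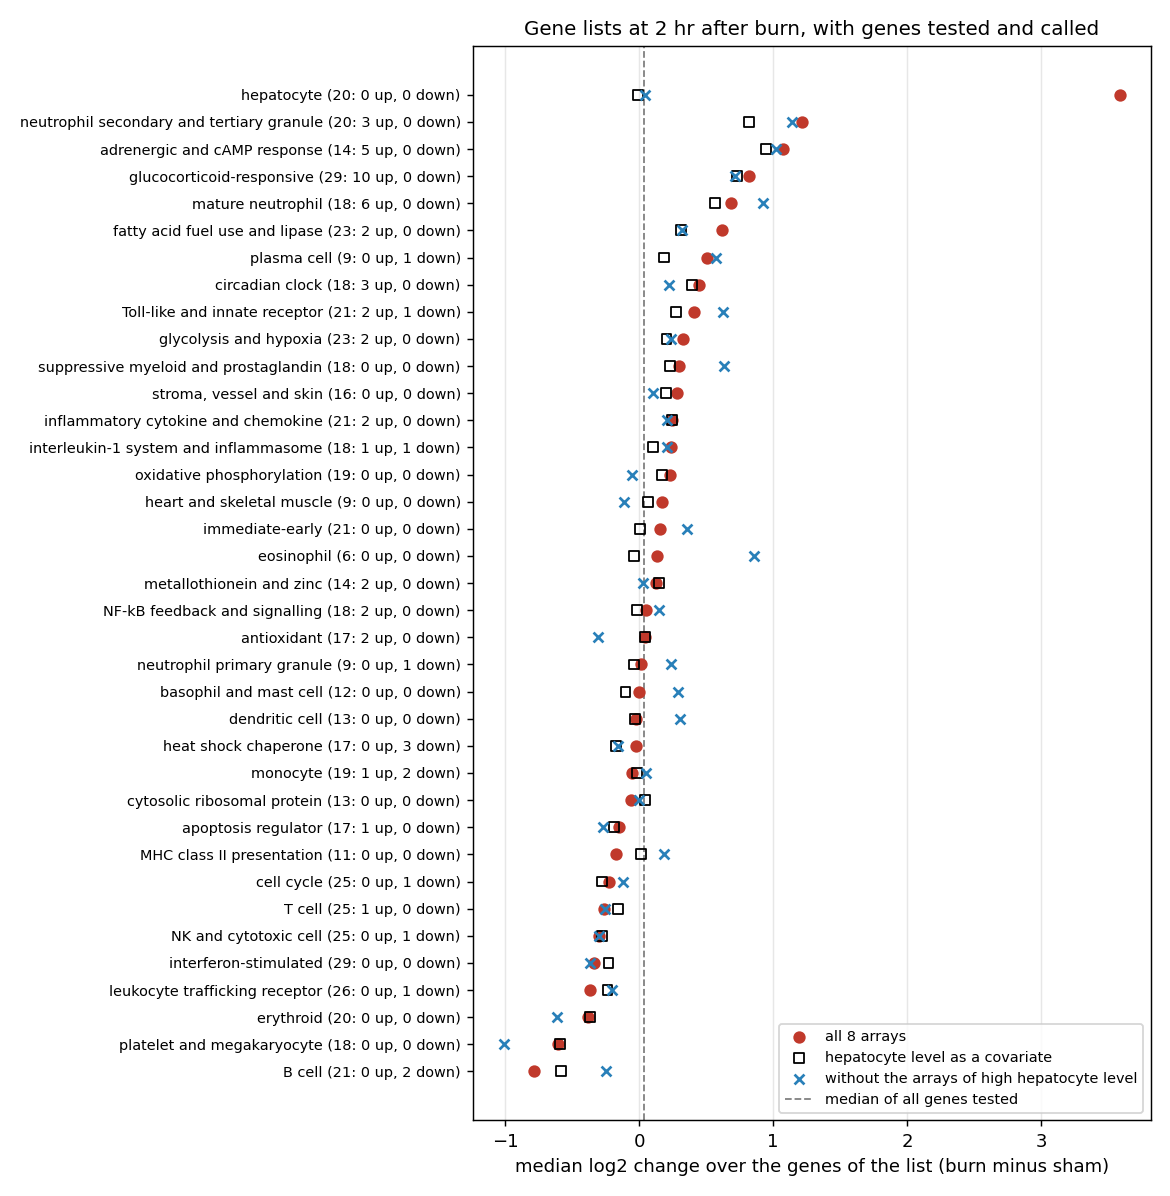
Median log2 change, burn minus sham, over the genes of each list on the x axis, with the genes tested and called beside each name. Filled circles use all 8 arrays, squares add the hepatocyte level as a covariate and crosses leave out the liver-positive arrays. The hepatocyte list stands at 3.59 with all arrays and near 0 otherwise. That was fixed in advance, since the covariate and the choice of arrays left out come from these same genes, and it is no check of the adjustment. The B cell list, at −0.78, is the lowest of the filled circles. The dashed line marks the median of all genes tested, 0.03.

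No gene passed in the lists of oxidative phosphorylation (median 0.23 over 19 genes), cytosolic ribosomal proteins (−0.06 over 13), suppressive myeloid and prostaglandin genes (0.30 over 18), platelets (−0.61 over 18), red cells (−0.38 over 20), heart and skeletal muscle (0.17 over 9) or stroma, vessel and skin (0.28 over 16). The platelet chemokine Pf4 lay between 8533 and 11928 after burn and between 12503 and 17620 in shams without passing (adjusted p = 0.532). The red cell list had 17 negative changes of 20.

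How far the early response carried over to 1 day was tested as a difference of the 2 burn effects. Of the 263 genes higher at 2 hr, 239 had the same direction at 1 day and 130 passed there as higher, against 9.21% of all genes. Of the 166 lower genes, 158 had the same direction and 138 passed as lower, against 16.2% of all genes. At 3 day 11 of the 263 passed as higher (1.07% of all genes), and at 7 day 17 did (1.63%). Of the 166 lower genes 0 passed as lower at 3 day (0.0205% of all genes) and 3 at 7 day (0.314%). The test of the difference passed for 1089 genes (7.44%), 843 (5.76%) with a more positive and 246 (1.68%) with a more negative change at 2 hr. With quantile normalization 63.0% of the genes called were more positive at 2 hr, against 77.4% without it, and 1069 genes passed with the hepatocyte covariate and 230 without the liver-positive arrays.

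The 8 leading differences were genes that fell at 1 day and did not pass at 2 hr. Il7r changed by 0.38 at 2 hr and by −3.80 at 1 day (adjusted p of the difference 4.5e-11), Gimap8, a lymphocyte GTPase, by −0.59 and −4.58, Bank1, a B cell adaptor, by −0.21 and −4.23, and Ms4a4b, a T cell membrane gene, by −0.16 and −3.56. Cdk19, Tasor, Nemp2 and Rrm2b went the same way, with changes of −0.31 to −0.05 at 2 hr and of −3.72 to −2.75 at 1 day. Of the 21 B cell genes 14 differed in this direction, Ms4a1 by 3.58 (−1.42 at 2 hr, −5.00 at 1 day).

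Xcl1, Cxcr6, Il1r2, Cd14 and Nfil3 differed the opposite way. Xcl1 changed by −2.40 at 2 hr and 0.09 at 1 day (adjusted p of the difference 0.0233), and Cxcr6 by −2.23 at 2 hr and −0.22 at 1 day (0.0235). Il1r2 changed by 3.17 at 2 hr and 5.97 at 1 day (adjusted p = 0.038), Cd14 by 3.20 and 5.77 (adjusted p = 0.0427) and Nfil3 by 2.46 and 5.08 (adjusted p = 0.0318). In the direction of Il7r, Ppargc1a rose at 2 hr and did not pass at 1 day (2.65 at 2 hr, −0.64 at 1 day, adjusted p = 0.00262). The difference did not pass for Mt2 (6.02 at 2 hr, 7.01 at 1 day), Fkbp5 (2.04 and 2.29), Per1 (2.06 and 3.53), Crem (3.05 and 2.33) or Ngp (4.57 and 6.33).

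Against trauma-hemorrhage at 2 hr, 161 genes differed (1.1%), 56 (0.382%) with a more positive and 105 (0.717%) with a more negative change after burn, and 131 passed with the hepatocyte covariate and 38 without the liver-positive arrays. Without burn replicate 4, 271 passed and the split turned, with 59.8% more positive after burn, against 34.8% of the 161. Of 29 interferon-stimulated genes 0 rose or fell after burn, with and without the covariate (median −0.34), and 24 rose after trauma-hemorrhage (median 1.75, against 1.97% of all genes higher there), and 19 differed between the injuries. Cxcl10, an interferon-induced chemokine, changed by −0.49 after burn and by 5.84 after trauma-hemorrhage (difference −6.33, adjusted p = 2.28e-09), with 9.84, 42.9, 73.8 and 52.8 on burn arrays and 101, 40.3, 82.3 and 68.2 on their shams. Cgas, the cytosolic DNA sensor, changed by −0.89 and 3.93, and Ifi47, Parp14, Irgm1, Slfn8 and the adhesion molecule Icam1 by −0.82 to −0.05 after burn and 2.20 to 2.89 after trauma-hemorrhage.

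Ifit1bl1, a relative of the antiviral IFIT genes, moved in opposite directions: it fell after burn (511, 873, 601 and 609, against 1438, 2026, 2062 and 2432 in shams, log2 change −1.57, adjusted p = 0.000195) and rose after trauma-hemorrhage (2.48, adjusted p = 1.27e-09). Ccrl2 rose less after burn (2.40) than after trauma-hemorrhage (4.72, adjusted p of the difference 0.0218). In the other direction, Per1 changed by 2.06 after burn and by −0.28 after trauma-hemorrhage (adjusted p of the difference 0.0124, and 0.0169 with the covariate), and Usp2 by 3.02 and −0.47 (0.00825, and 0.0382 with the covariate). Fkbp5 changed by 2.04 and 0.25 (0.042, and 0.0891 with the covariate) and Mt2 by 6.02 and 1.98 (0.0493, and 0.179 with the covariate).

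Cxcr6 changed by −2.23 after burn and by 1.01 after trauma-hemorrhage (adjusted p of the difference 0.000422). Of the 263 genes higher after burn 36 passed as higher after trauma-hemorrhage, and of the 166 lower genes 25 passed there as lower (1.28% of all genes). Genes of similar change in the 2 injuries included Pmvk (2.99 after burn, 3.44 after trauma-hemorrhage), Acod1 (3.71 and 4.24) and Crem (3.05 and 2.26), for which the difference did not pass. No array of trauma-hemorrhage had a hepatocyte level above 9.

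**Figure D5:**
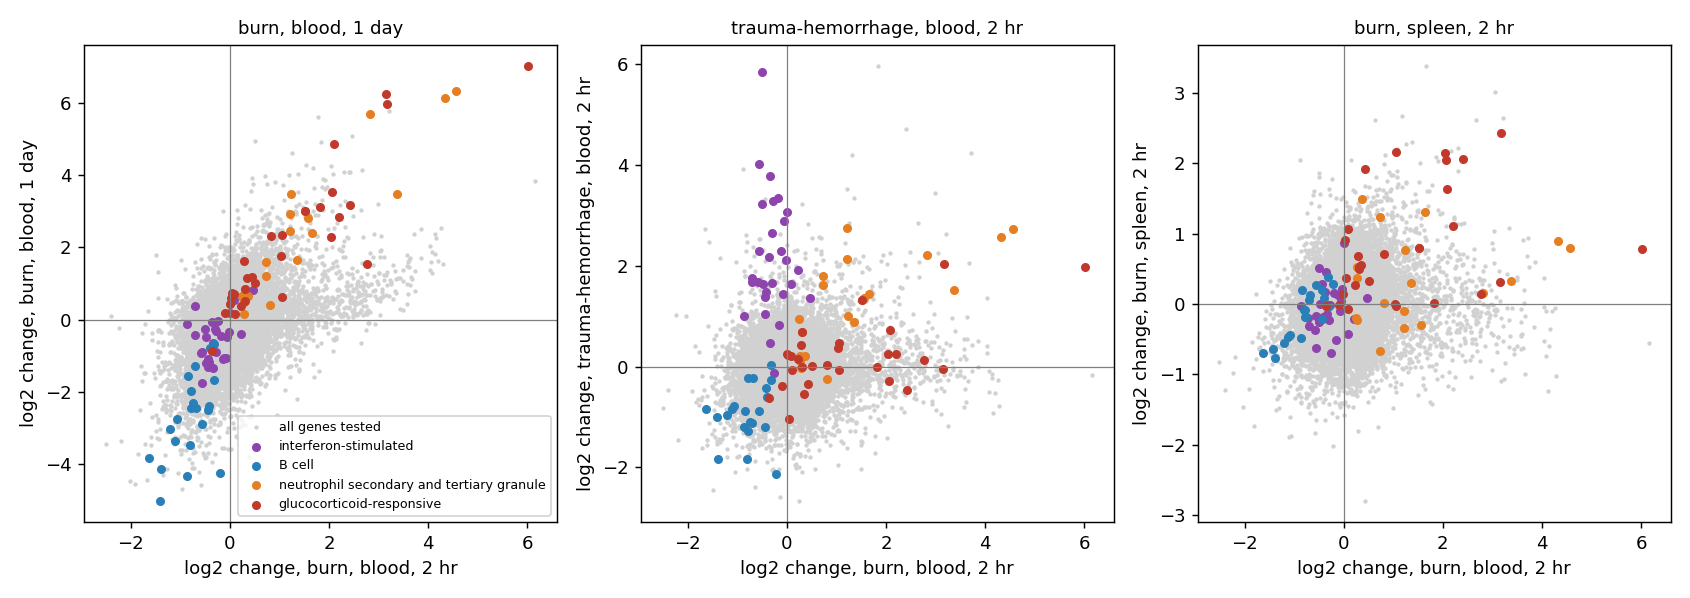
Log2 change of each gene after burn in blood at 2 hr on the x axis, against burn in blood at 1 day, trauma-hemorrhage in blood at 2 hr and burn in spleen cells at 2 hr on the y axes, each with its own shams. Grey points are all genes tested and coloured points 4 lists. Interferon-stimulated genes lie mostly left of 0 on the x axis and reach 5.84 (Cxcl10) after trauma-hemorrhage, and B cell genes reach −5.00 at 1 day.

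In spleen cells of the burn model at 2 hr, 24 of 15637 genes (0.153%) differed in response from blood, 20 (0.128%) more positive and 4 (0.0256%) more negative in blood. This count was the least stable: 0 passed without the liver-positive arrays (limma, 713 at an unadjusted p under 0.05), 382 without burn blood replicate 4 and 304 without sham blood replicate 2, and with quantile normalization 57.8% of 45 calls were more positive in blood, against 83.3% of the 24. Fitted on its own groups alone the split turned: 16 genes passed, 5 of them among the 24, and 31.2% were more positive in blood. With the hepatocyte covariate 6 passed. Among the spleen shams replicate 3 stood apart in array quality. Its hybridization control level was 38732 and its median signal 309, against 7060 to 11432 and 101 to 161 on the other spleen shams. Without that array 14 genes passed. Mt2 changed by 6.02 in blood and by 0.78 in spleen (difference 5.24, SE 0.96, adjusted p = 0.00163), and Pmvk by 2.99 in blood and 0.87 in spleen (difference 2.11, SE 0.34, adjusted p = 0.000163). Rabgef1, a regulator of endosome traffic (1.29 and −0.25), and Rdh12, a retinol dehydrogenase (2.67 and 0.25), also passed in blood and not in spleen. Litaf, an endosomal protein, went the other way (0.15 in blood, 2.05 in spleen). The spleen arrays carried no liver signal: the differences of Igfbp1, Cpn1 and Phlda1 (6.71, 3.41 and 3.13) did not pass with the covariate, and those of Mt2, Pmvk, Rabgef1, Rdh12 and Litaf did.

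Several changes were of similar size in blood and spleen. Fkbp5 changed by 2.04 in blood and 2.15 in spleen, Per1 by 2.06 and 2.05, Crem by 3.05 and 3.01, Ctla4 by 2.16 and 2.18 and Hdc by 2.67 and 2.61, all past the threshold in each tissue, and Chordc1 fell by 1.25 in blood and by 0.99 in spleen. In spleen 182 of the 263 higher genes had the same direction and 53 passed as higher (1.81% of all genes). For the 166 lower genes, 155 had the same direction and 20 passed as lower (0.382% of all genes). Among genes that passed in all 3 blood fits, 87 of the 95 higher had the same direction in spleen and 41 passed there as higher. For the 61 lower, 58 had the same direction and 12 passed as lower. After trauma-hemorrhage 25 of these 95 passed as higher and 9 of these 61 as lower, against 1.97% and 1.28% of all genes.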

How the data were processed

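Blood leukocyte RNA of 8 mice was amplified, labelled and measured on Affymetrix arrays that cover the mouse genome (protocol fields of the labels). The deposited values are MAS5 signal intensities per probe set on a linear scale, made by the authors with GCOS 1.4 per the submitters' processing notes. Values were used as deposited, with no further scaling. Probe sets with a single gene were kept. For each gene, probe sets whose names did not end in _s_at or _x_at came first. Within the class used, the one of highest mean signal over 128 injury arrays stood for the gene. Symbols were matched by gene ID to RefSeq (18031 of 18193 genes). Genes whose signal exceeded the median of the array on 4 or more arrays entered the test, on log2(signal + 32), so folds of faint genes are understated. Group means were fitted over 64 blood arrays with limma 3.58.1 (R 4.3.3, trended empirical Bayes, Benjamini-Hochberg over all 14645 genes, threshold 0.05). Differences between effects used the same fit, with 128 arrays and 15637 genes for blood against spleen. Blood and spleen cells may come from the same mice, which the labels do not say, so that fit had no pairing. The arrays give no read depth, and their number limits the precision. On simulated data 2%, 18%, 90% and 100% of genes changed by 0.5, 1, 2 and 3 log2 units were recovered (50 genes each), with 7 false calls among 112. The simulated noise was normal and independent between genes, with no arrays of high liver signal and no split by hybridization day. Its rate of false calls therefore does not carry over to these arrays.

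The comparison, the gene lists and the tests were chosen with earlier results of these data known. Named genes are the 12 largest rises and 12 largest falls with ranges apart, up to 6 members of each list with the smallest p among those that passed, the 3 of highest signal where fewer than 3 passed, the 8 leading genes of each difference and a fixed set, with exceptions stated. Alternatives covered the added constant, filter, normalization, probe set choice, blocks, covariates and single arrays. The hepatocyte list and its 3 settings were added after seeing the data. Deviations of same-numbered burn and sham arrays correlated by 0.0997, 0.490, −0.252 and 0.293 for replicates 1 to 4, not positively in every pair, so numbers were not taken as pairs.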

Additional observations from a re-analysis of the deposited data

Results flagged for a closer look

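Among 416 sets of 4 arrays tested, 37 had 1 array far from the other 3 by Dixon's criterion, and chance alone gives about 1 in 20. Sham replicate 2 stood above its group in the hepatocyte level (12.32) and in the liver genes Alb (18839), Apoa2 (18392), Cps1 (15288), Apoa1 (10767), Ttr (9728), Hpd (3894), Hamp (1153), Pck1 (461), G6pc (189), Igfbp1 (139) and Cpn1 (56.9). The same array was highest among shams in Errfi1 (7006), Slc39a1 (3797), Gstm1 (1557), 1810055G02Rik (69.8), Ciart (62.7), Sdc1 (1366) and Hspa1a (418).

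Other shams stood apart singly. Sham replicate 1 was high in Fkbp5 (895) and low in Atp5a1 (8543) and Sod1 (21599). Sham replicate 3 was high in Zfp563 (619.8) and low in Ppargc1a (41.3), Dusp1 (11866), Prim2 (122) and Cxcr3 (708). Sham replicate 4 was low in Siglecf (107).

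On the burn side, replicate 1 was high in Alas2 (33207), S100a8 (36508), Mpo (230.3), Cd44 (11334) and Bpgm (15943). Replicate 2 was high in Il10 (101), and replicate 4, the array without liver signal, was high in Alox15 (2681), Tnfrsf13b (680.0) and Nfkbiz (8548).

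Tests of differences between effects singled out further genes, with values as differences of log2 changes. Between 2 hr and 1 day these were Il7r (4.18), Gimap8 (3.99), Cdk19 (3.05), Tasor (3.41), Nemp2 (3.54), Ms4a4b (3.40), Bank1 (4.02) and Rrm2b (2.45). Between burn and trauma-hemorrhage they were Ifit1bl1 (−4.05), Ifi47 (−2.85), Cxcl10 (−6.33), Cgas (−4.82), Parp14 (−2.87), Icam1 (−3.11), Irgm1 (−2.94) and Slfn8 (−3.10). Between blood and spleen they were Mt2 (5.24), Pmvk (2.11), Litaf (−1.91), Rabgef1 (1.53), Rdh12 (2.42), Igfbp1 (6.71), Cpn1 (3.41) and Phlda1 (3.13).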

How the results depend on the processing

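The 429 genes called at 2 hr became 281 with a constant of 1, 167 with the hepatocyte level as a covariate, 172 with the high-hepatocyte arrays as a block, 8 without those arrays, 946 with array weights, 10 within hybridization day 1 and 115 within day 2. Without 1 array the counts ran from 150 to 815 here, from 848 to 1119 of 1089 against 1 day, from 114 to 271 of 161 against trauma-hemorrhage and from 6 to 382 of 24 against spleen. The difference from 1 day passed for 230 genes without the high-hepatocyte arrays and 1746 fitted on its groups alone, and that from trauma-hemorrhage for 38 and 84. The difference from spleen passed for 8 and 119 genes with constants of 1 and 100, 45 with quantile normalization, 6 with the hepatocyte covariate, 7 with that block and 0 without those arrays (limma, 713 at an unadjusted p under 0.05). Quantile normalization moved the median of all genes from 0.10 to −0.04 for the difference from 1 day and from 0.08 to −0.02 for that from trauma-hemorrhage. Fitted on the 8 arrays alone, 448 genes passed, 42.2% of them higher. Of 76 named genes called, 45 kept their call under the covariate and 8 without the high-hepatocyte arrays. Without those arrays, where 1 burn array is left and assumed to vary like the other groups, Tat (−0.67) and G6pc (−0.045) turned direction; the other named genes called kept theirs under all settings run. The replicate number as a block gave 413 genes, and same-numbered arrays correlated in their deviations by −0.252 to 0.490. The cause of these shifts was not tested beyond the fewer arrays in some fits.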

Other observations

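Values of liver genes, chosen after they were seen, are given for each array. Igfbp1, a secreted binder of insulin-like growth factors that liver makes in stress and fasting, had 9380, 21661, 24468 and 6.42 on burn replicates 1 to 4, against 2.12, 139, 4.06 and 2.93 on sham replicates 1 to 4. Alb was at 21160 on burn replicate 2 and 18839 on sham replicate 2, while Igfbp1 was at 21661 on burn replicate 2 and 139 on sham replicate 2. Pck1, a rate-limiting enzyme of gluconeogenesis, had 472, 3676, 6738 and 8.88 after burn, against 54.1, 461, 35.5 and 4.83 in shams. G6pc, which releases free glucose, had 216, 2385, 3496 and 13 after burn, against 8.05, 189, 5.88 and 33.7 in shams. On burn replicate 1, Pck1 and G6pc lay close to their values on sham replicate 2. With 1 liver-positive sham there is no replicate of it, and the source of the liver signal was not tested.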
